A study of Mus musculus with 18 samples.

Results

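Tnf, Lta and Ltb are neighbours on mouse chromosome 17 and encode the cytokines TNF, lymphotoxin-α and lymphotoxin-β. Their accessible chromatin was taken as every ATAC-seq peak that overlapped the body of 1 of the 3 genes extended by 25 kb on both sides, which gave 19 of the 194284 peaks of the series. ATAC-seq reads out the DNA that a transposase can reach. Bone marrow-derived macrophages (BMDMs) were grown for 6 days from 3 Il10-/- mice on the C57BL/6J background, 12 weeks old, and the cells of each mouse were divided over 6 conditions. Mouse numbers below are the replicate numbers of the sample titles, taken to mean the same mouse in every condition. The conditions were unstimulated and untreated, 500 nM (+)-JQ1 alone, 10 ng/mL IL-10 alone, 50 ng/mL LPS, LPS with (+)-JQ1 and LPS with IL-10. (+)-JQ1 or IL-10 was given for 12 hours before 4 hours of LPS or PBS. All 18 libraries, controls included, come from cells that cannot make IL-10, and wild-type cells were not analysed here. (+)-JQ1 keeps BET proteins off acetylated histones. LPS is a bacterial product sensed by macrophages. How the accessibility of these genes answered LPS, and how BET inhibition or exogenous IL-10 altered that answer, were the questions asked.

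TNF is a central inflammatory cytokine of macrophages. It is made as a membrane-bound protein, shed by the protease ADAM17, and acts through the receptors TNFR1 and TNFR2 to activate NF-κB and, in some settings, cell death. Lymphotoxin-α is secreted as a trimer that uses the TNF receptors, or is anchored at the cell surface by lymphotoxin-β, and the mixed trimer acts through the lymphotoxin-β receptor in the formation of lymphoid tissue. Lymphotoxins are known mainly as products of lymphocytes, whereas the Tnf gene of macrophages is a rapid target of Toll-like receptor signalling.

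In mm9 with GENCODE M1, Ltb (ENSMUSG00000024399.5) lies on the plus strand at chr17:35331384-35333265. Tnf (ENSMUSG00000024401.8) is on the minus strand at chr17:35336326-35338952 and Lta (ENSMUSG00000024402.5) on the minus strand at chr17:35340110-35342296. Peaks are named here by the distance of their middle from the Tnf start site, positive on the Ltb side and negative on the Lta side. Of the 19 peaks, 8 were classed by the authors as promoter and 11 as distal, 14 fell in the windows of all 3 genes, and all 19 passed the filter on low counts. They were 850 to 6185 bp wide with a median of 2603 bp, compared with a median of 957 bp over all peaks, so a value often sums several possible elements.

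On the Ltb side, the +32.7 kb and +27.6 kb peaks covered Aif1, the +21.4 kb peak Ncr3-ps, and the +17.3, +15.6 and +13.2 kb peaks Lst1. The start of Ltb lay in the +8.7 kb peak (chr17:35328435-35332037). The +4.5 kb peak (chr17:35332272-35336684) ran from the 3′ part of Ltb across the intergenic stretch into the 3′ UTR of Tnf. Inside the Tnf body, the +0.8 kb peak (chr17:35337711-35338608) covered coding exons and introns. The start of Lta lay in the -2.5 kb peak (chr17:35340279-35342605). Beyond Lta, the -7.4 kb (chr17:35344868-35347761), -9.4, -11.0 and -13.4 kb peaks were intergenic, and so was the -17.5 kb peak (chr17:35356005-35356962), which was of promoter class through its distance to the start of Gm16181. The -20.9 kb peak spanned Gm16181 and part of Nfkbil1, and the -24.1, -26.0 and -28.5 kb peaks were in introns of Nfkbil1. No peak used here covered the 1670 bases between the +0.8 kb and -2.5 kb peaks, which hold the Tnf start site, and accessibility there was not analysed here.

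Consensus matches for the motifs of NF-κB (kappaB) and AP-1 (TGANTCA), factors that LPS signalling activates, are shown because the peaks that answered LPS are compared by them. Both strands of the whole peak were searched. A kappaB match was found in 7 of the 19 peaks, once in each. These are printed 5′ to 3′ on the plus strand of mm9 with the match in capitals and 10 bases on either side, and the match in the -2.5 kb peak lies in a UTR of Lta:
+27.6 kb, chr17:35311658-35311687: cctatctttaGGGACTTTCCaaaagtcacc
+21.4 kb, chr17:35318128-35318157: cctcgaacttGGAAATCCCCctgactctgc
+8.7 kb, chr17:35331355-35331384: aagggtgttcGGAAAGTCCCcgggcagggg
+4.5 kb, chr17:35336103-35336132: tcccagagtgGGAAATTCCCatgccccagg
-2.5 kb, chr17:35342194-35342223: ctggggcttgGGGAAGCCCCcagggcttag
-7.4 kb, chr17:35347335-35347364: acagctgtctGGGACTTTCCccggggggga
-26.0 kb, chr17:35364371-35364400: acctcctcccGGGAAGTCCCatcttcctct

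An AP-1 match was present in 10 of the 19 peaks, once in each. The pattern allows any middle base, which was T at +4.5 kb, A at +13.2 kb and C or G in the others. Those in 3 of the 4 peaks that rose most with LPS are printed in the same way, the fourth of them holding none:
+4.5 kb, chr17:35335998-35336024: tccttggctgTGATTCAggtgcctgag
-7.4 kb, chr17:35347109-35347135: ggattagattTGAGTCAgagcagaagg
-17.5 kb, chr17:35356773-35356799: gctcattcagTGACTCAgcagagggaa

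The +4.5 kb and -7.4 kb peaks held both kinds of match, the -17.5 kb peak an AP-1 match alone, and the +0.8 kb peak neither. Wide peaks hold matches more often. Among all peaks of the series within 10% of their own width, a kappaB match was found in 17.4% for the +4.5 kb peak, 14.1% for the +8.7 kb peak, 11.2% for the -7.4 kb peak and 8.05% for the -26.0 kb peak. An AP-1 match occurred in 76.1%, 62.1% and 28.2% of peaks as wide as the +4.5, -7.4 and -17.5 kb peaks. Of the 7 peaks with a kappaB match 5 rose with LPS, and of the 12 without one 6 rose. In the 300 bases around the middle of each peak, where the search covers the same length everywhere, no member held a kappaB match and 1 (the -11.0 kb peak) held an AP-1 match, compared with 1.43% and 12.1% of the 194284 peaks. PU.1 (GAGGAAG), a factor of the myeloid lineage, matched somewhere in 16 of the 19 whole peaks, where 34.2% to 91.6% of all peaks as wide as a member held a match. C/EBP (TTGCNNAA) matched in 10 (30.7% to 87.6% of peaks of like width) and the interferon response element, searched as a pair of GAAA repeats with a spacer, in 7 (11.2% to 48.9%). Egr (GCGTGGGCG) matched in 1 and CRE (TGACGTCA) in none. In the central 300 bases alone, PU.1 was found in 6 of the 19 peaks and in 15.7% of all peaks, C/EBP in 4 and 12.5%, the interferon response element in 2 and 4.4%, CRE in 0 and 0.338%, and Egr in 0 and 0.102%.

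The middle of the +0.8 kb peak, chr17:35338010-35338309 within the Tnf body, is given because accessibility there was lowest against LPS alone when IL-10 was present. Capitals mark the 1 motif match in it, PU.1 on the minus strand:
+0.8 kb: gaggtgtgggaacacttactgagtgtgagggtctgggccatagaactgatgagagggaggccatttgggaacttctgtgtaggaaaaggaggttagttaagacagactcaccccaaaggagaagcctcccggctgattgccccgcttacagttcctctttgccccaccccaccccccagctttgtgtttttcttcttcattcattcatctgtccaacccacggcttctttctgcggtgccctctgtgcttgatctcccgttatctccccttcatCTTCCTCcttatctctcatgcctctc

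Libraries held 12020526 to 25908198 counts in peaks, and the mean count per library in a member peak was between 28.6 (-11.0 kb) and 1080 (+4.5 kb). Levels are given as CPM, the count of a peak relative to the library's total count after TMM scaling. A difference was called where its FDR was under 0.05 and its |log2 fold-change| exceeded 0.5. The FDR is the Benjamini-Hochberg adjusted p of edgeR's quasi-likelihood test over all 194230 tested peaks. Start sites of all 7 macrophage markers examined, among them Csf1r and Emr1, lay in peaks, while the defining T cell genes Cd3e and Cd3g had none there. Of the lists for other cells, 3 of 5 T cell genes (8.32 to 12.2 CPM per kb summed over the list), 3 of 5 neutrophil genes (13.8 to 39.8) and 4 of 4 dendritic cell genes (23.8 to 44.1) had a start-site peak, and the neutrophil genes S100a9 and Ly6g had none. Summed accessibility at the macrophage start sites was 39.7 to 57.3 CPM per kb in unstimulated libraries and 60.2 to 64.6 with LPS. The T cell list (8.70 to 10.3 and then 10.5 to 11.2) and the dendritic cell list (23.8 to 31.5 and then 33.6 to 38.3) were likewise higher with LPS without overlap, and the part of these lists in the comparisons with unstimulated cells was not tested. Single genes weighed on the sums. Emr1 had a mean of 12.8 CPM per kb unstimulated and 23.2 with LPS, and Zbtb46 in the dendritic cell list 22.8 and 29.9. Of the other macrophage genes, Csf1r, Fcgr1 and Sfpi1 rose less than Emr1, and Itgam, Cd68 and Mertk did not rise.

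LPS raised accessibility over much of the locus. With LPS, 11 of the 19 peaks (57.9%) were called higher and none lower, where 21.9% of all tested peaks were called, 11.7% higher and 10.2% lower. That split of all peaks followed the scaling, with 22790 higher and 19802 lower under TMM and 12786 and 37565 under total counts. All 19 log2 fold-changes were above 0, from 0.14 (+17.3 kb) to 2.18 (+4.5 kb), with a median of 0.62 beside -0.03 over all peaks. At an unadjusted p under 0.05, 15 were higher and none lower, and DESeq2 called 10. Since the measurement is in bulk, more cells with open chromatin and more open chromatin per cell cannot be told apart.

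**Figure D1:**
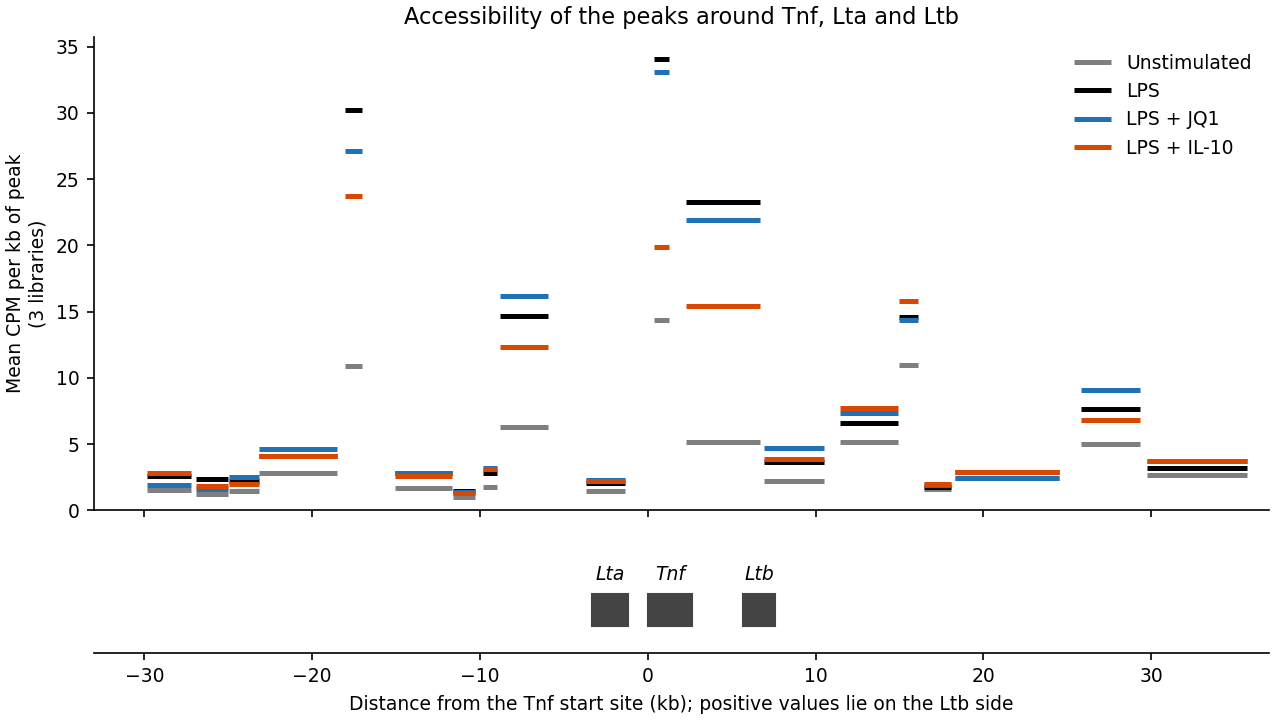
Mean TMM-normalized CPM per kb of peak (3 libraries) for the 19 member peaks, each drawn over its width against the distance from the Tnf start site, with the bodies of Lta, Tnf and Ltb below. Per kb, the +0.8 kb and -17.5 kb peaks were highest with LPS (34.1 and 30.2) and the LPS + IL-10 line of the +0.8 kb peak (19.9) lies nearer to the unstimulated one (14.4) than to that of LPS.

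The largest rise was downstream of Tnf. In the +4.5 kb peak, unstimulated libraries of mice 1, 2 and 3 had 18.2, 21.4 and 28.5 CPM, and their LPS counterparts 88.8, 105 and 116. The lowest LPS library was above the highest unstimulated one, and the peak rose by 2.18 ± 0.15 on the log2 scale (4.52-fold, ± SE, edgeR FDR = 1.20e-24). This 1 peak held 12.0% ± 1.39 (SD, n = 3) of the summed signal of the locus in unstimulated cells and 27.2% ± 2.43 with LPS.

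Within the Tnf body, the +0.8 kb peak had 10.4, 12.1 and 16.3 CPM without stimulation and 29.4, 30.3 and 32.3 with LPS. The groups did not overlap, and the log2 fold-change was 1.24 ± 0.14 (edgeR FDR = 9.11e-12). Per kb it was the most accessible of the 19 peaks in LPS-stimulated cells, at 34.1 ± 1.65 CPM per kb, compared with 23.3 ± 3.05 for the wider +4.5 kb peak (SD, n = 3).

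A pair of intergenic peaks beyond Lta also rose. The -17.5 kb peak had 8.57, 11.0 and 11.8 CPM without stimulation and 32.3, 28.3 and 26.2 with LPS (log2 fold-change 1.47 ± 0.14, edgeR FDR = 3.02e-15). The -7.4 kb peak had 14.4, 18.7 and 21.9 CPM before and 43.9, 42.1 and 41.2 after LPS (1.21 ± 0.14, edgeR FDR = 3.20e-12). In both, every LPS library exceeded every unstimulated one. These 4 peaks, +4.5, +0.8, -7.4 and -17.5 kb, were called in every other fit run, including each replicate left out.

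The promoters of the lymphotoxin genes changed less. At the start of Ltb, the +8.7 kb peak had 8.03, 6.65 and 9.48 CPM without stimulation and 11.8, 13.8 and 13.5 with LPS, and the groups did not overlap. It rose by 0.69 ± 0.15 (edgeR FDR = 2.56e-04), but by 0.52 with an FDR of 0.0778 when replicate 2 was left out. At the start of Lta, the -2.5 kb peak was among the weakest, with 3.68, 3.85 and 2.90 CPM unstimulated and 3.17, 6.04 and 5.20 with LPS. The groups overlapped through mouse 1, which was lower with LPS, and the difference of 0.46 ± 0.21 was not called (edgeR FDR = 0.0912). Without replicate 1 it was called.

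The other 6 called peaks rose by 0.54 to 0.92 on the log2 scale. At an annotated start of Aif1, a calcium-binding protein of macrophages, the +27.6 kb peak had 14.5, 15.1 and 22.8 CPM unstimulated and 26.3, 26.8 and 27.5 with LPS (0.62 ± 0.14, edgeR FDR = 3.73e-04). The intergenic -13.4 kb peak had 6.76, 5.11 and 5.53 CPM and then 10.4, 8.69 and 10.2 (0.75 ± 0.16, edgeR FDR = 1.83e-04). Both were above the unstimulated range in every LPS library. The +32.7 kb peak, also at an annotated start of Aif1, was not called (0.25 ± 0.14, edgeR FDR = 0.186).

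At Gm16181 and Nfkbil1 the rises were of like size. The -20.9 kb peak had 14.0, 12.5 and 12.8 CPM unstimulated and 18.5, 20.8 and 17.9 with LPS (0.54 ± 0.15, edgeR FDR = 0.00285). The -26.0 kb peak had 2.61, 2.97 and 1.75 CPM and then 5.74, 3.95 and 4.06 (0.92 ± 0.23, edgeR FDR = 0.00111), and the -28.5 kb peak 4.55, 3.63 and 3.84 CPM and then 7.95, 6.59 and 5.85 (0.78 ± 0.19, edgeR FDR = 8.56e-04). In these 3 the groups did not overlap. The -24.1 kb peak had 3.95, 1.87 and 2.25 CPM and then 4.00, 4.39 and 3.70, so that its highest unstimulated library exceeded its lowest LPS library (0.61 ± 0.24, edgeR FDR = 0.0489).

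Of the 8 peaks not called with LPS, the 3 over Lst1 and the +21.4 and +32.7 kb peaks had log2 fold-changes of 0.14 to 0.41. The weak intergenic -9.4 and -11.0 kb peaks had larger changes with wider errors (0.65 ± 0.28 and 0.49 ± 0.31, edgeR FDR = 0.0802 and 0.255), and the last was the Lta promoter. Without replicate 2, 7 of the 11 calls were made, and those of the +27.6, +8.7, -20.9 and -24.1 kb peaks were lost.

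Scaling by total counts in place of TMM moved the median of all peaks with LPS from -0.03 to -0.26, and called 7 of the 11, losing the same 4 peaks. The rise of the +4.5 kb peak was 1.96 under total counts. The TMM factors of the unstimulated libraries were 1.24, 1.15 and 1.04, and the part of this difference in library composition was not tested. Replicates 1 and 3 were each sequenced in a single lane, while the lane of replicate 2 differed between libraries with and without LPS. Within replicates 1 and 3 the log2 ratio of LPS to unstimulated was 2.29 and 2.02 for the +4.5 kb peak, 1.50 and 0.98 for the +0.8 kb peak, 1.92 and 1.15 for the -17.5 kb peak and 1.61 and 0.91 for the -7.4 kb peak.

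**Figure D2:**
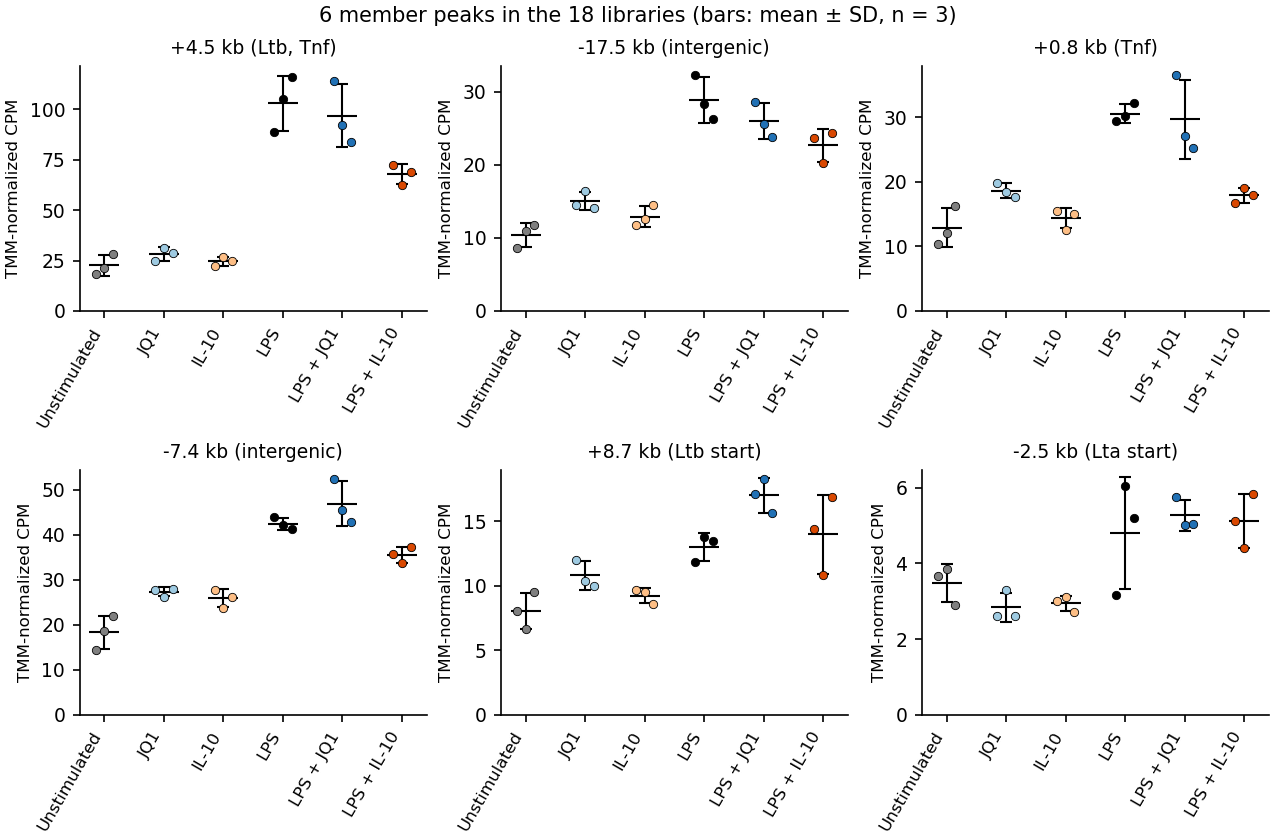
TMM-normalized CPM of 6 member peaks in the 18 libraries by condition, with points for the 3 mice (1 to 3 from left to right) and bars for the mean ± SD. With LPS + IL-10 the +4.5 kb and +0.8 kb peaks sit below every LPS library, at 62.7 to 72.5 and 16.7 to 19.0 CPM.

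The rise was denser here than in the surroundings. Of the 45 peaks outside the windows but within 100 kb of a member gene, 8 (17.8%) were higher with LPS and none lower, with a median log2 fold-change of 0.20. Over all tested peaks 11.7% were higher and 10.2% lower, with a median of -0.03. In summed accessibility, the 19 peaks had 172.6, 178.3 and 214.1 CPM in unstimulated cells and 358.5, 384.2 and 390.0 with LPS. With LPS + IL-10 the sum was 318.0, 296.2 and 351.6 CPM, below every LPS library, and with LPS + (+)-JQ1 it was 425.7, 370.5 and 354.4, overlapping LPS alone. Under total counts the sums with LPS + IL-10 (311.2, 302.3 and 368.8 CPM) overlapped those with LPS (337.9, 376.9 and 387.2). After TMM scaling the sum was 224.1 to 228.6 CPM with (+)-JQ1 alone and 203.7 to 223.7 with IL-10 alone. No test was made of this sum.

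No change of the LPS-stimulated locus was detected with BET inhibition. None of the 19 peaks was called between LPS + (+)-JQ1 and LPS by edgeR's quasi-likelihood test or by DESeq2. Of all tested peaks 5.22% were called, 3.49% lower and 1.74% higher, a share so low that 19 peaks can readily hold none. Of the 45 flanking peaks, likewise none was called by edgeR. At an unadjusted p under 0.05, 1 of the 19 peaks was higher and 2 were lower, and the lowest FDR was 0.108. In LPS + (+)-JQ1 libraries of mice 1, 2 and 3, the +4.5 kb peak had 114, 92.5 and 83.7 CPM. The groups overlapped, with mouse 1 higher and mice 2 and 3 lower than in their own LPS libraries. The difference was -0.09 on the log2 scale, with an approximate 95% interval of -0.36 to 0.18.

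Likewise the +0.8 kb peak had 36.6, 27.2 and 25.3 CPM with LPS + (+)-JQ1, again above LPS alone in mouse 1 and below it in mice 2 and 3 (-0.05, interval -0.32 to 0.22). Within a lane the log2 ratio of LPS + (+)-JQ1 to LPS was 0.36 and -0.46 at +4.5 kb and 0.32 and -0.35 at +0.8 kb (replicates 1 and 3), of opposite sign in the lanes. The -7.4 kb peak had 52.5, 45.4 and 42.9 CPM (0.14, interval -0.11 to 0.39) and the -17.5 kb peak 28.6, 25.6 and 23.8 CPM (-0.16, interval -0.41 to 0.09). At +4.5 and +0.8 kb these values rest on mouse 1, and without replicate 1 the differences were -0.32 and -0.25 (edgeR FDR = 0.244 and 0.419). The 3 peaks with an unadjusted p under 0.05 lay elsewhere. The Ltb promoter (+8.7 kb) had 17.1, 18.3 and 15.6 CPM, above the LPS libraries in all 3 mice (0.38 ± 0.14, edgeR FDR = 0.108). The -26.0 and -28.5 kb peaks in introns of Nfkbil1, which encodes an IκB-like protein, were lower in all 3 mice (-0.53 ± 0.22, edgeR FDR = 0.152, and -0.44 ± 0.18, edgeR FDR = 0.151). These 3 differences were not called under any alternative. Macrophage start sites summed to 69.6 to 74.2 CPM per kb with LPS + (+)-JQ1 and 60.2 to 64.6 with LPS. The T cell list had 11.5 to 12.2 and 10.5 to 11.2. The neutrophil and dendritic cell lists overlapped between these conditions, and the part of the lists in this comparison was not tested.

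IL-10 lowered the peaks of the Tnf body and its 3′ side. Between LPS + IL-10 and LPS, 2 of the 19 peaks (10.5%) were called lower and none higher, where 8.77% of all tested peaks were called, 4.51% lower and 4.26% higher. In the flanks, 4 of 45 peaks (8.89%) were lower and none higher. DESeq2 called the same 2 member peaks. The +0.8 kb peak had 16.7, 19.0 and 17.9 CPM in LPS + IL-10 libraries, all below the lowest LPS library, and fell by 0.78 on the log2 scale (± 0.14 SE, edgeR FDR = 1.81e-05). It was called under every alternative. The +4.5 kb peak had 72.5, 62.7 and 68.8 CPM, also below the lowest LPS library, and fell by 0.60 (± 0.14, edgeR FDR = 0.00105). Without replicate 2 that fall was 0.53 with an FDR of 0.136, and with loess offsets it was 0.37, below the call threshold. Within a lane, the ratio of LPS + IL-10 to LPS was -0.82 and -0.85 for the +0.8 kb peak and -0.29 and -0.75 for the +4.5 kb peak (log2, replicates 1 and 3).

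The intergenic -17.5 and -7.4 kb peaks beyond Lta were also below every LPS library with IL-10, without being called. The other intergenic peaks there, at -9.4, -11.0 and -13.4 kb, overlapped with LPS alone (0.16, -0.06 and -0.15). Elsewhere, the +27.6 kb peak was below every LPS library (-0.17 ± 0.14, edgeR FDR = 0.513). The +32.7 kb peak was above every one (0.22 ± 0.14, edgeR FDR = 0.348), and neither was called. In the -17.5 kb peak the LPS + IL-10 libraries had 23.7, 20.2 and 24.4 CPM (-0.35 ± 0.13, edgeR FDR = 0.0850), and in the -7.4 kb peak 35.8, 33.7 and 37.2 CPM (-0.26 ± 0.13, edgeR FDR = 0.235). The promoters of Ltb (14.4, 10.8 and 16.9 CPM) and Lta (5.13, 4.40 and 5.83 CPM) overlapped with LPS alone, with differences of 0.11 ± 0.15 and 0.11 ± 0.20. Neutrophil start sites summed to 32.5 to 39.8 CPM per kb with LPS + IL-10 and 21.1 to 24.5 with LPS, and their part in these differences was not tested.

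**Figure D3:**
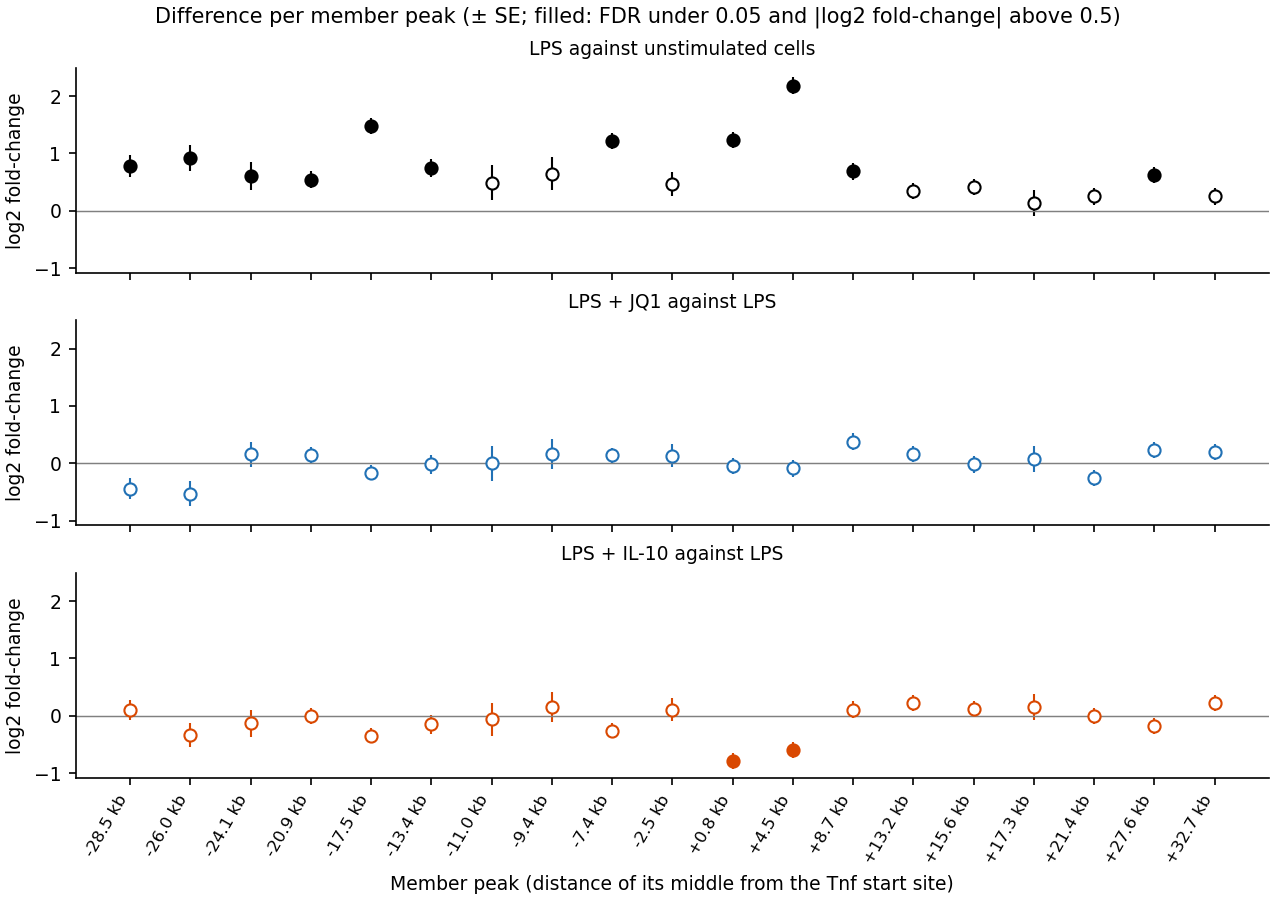
Log2 fold-change (± SE) of each member peak with LPS against unstimulated cells, LPS + (+)-JQ1 against LPS and LPS + IL-10 against LPS, ordered along the locus. Filled points are called differences, which 11, 0 and 2 of the 19 peaks did, and the comparisons share the LPS libraries.

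The treatments were also compared with each other under LPS. Of the 19 peaks, 2 were called higher and 1 lower with LPS + (+)-JQ1 than with LPS + IL-10, where 8.11% of all tested peaks were called, 3.43% higher and 4.68% lower. The +0.8 kb peak was higher by 0.72 ± 0.14 (edgeR FDR = 8.97e-05) and the +4.5 kb peak by 0.51 ± 0.14 (edgeR FDR = 0.00770), each in 3 of 3 mice. Within a lane the log2 ratio was 1.14 and 0.50 at +0.8 kb and 0.65 and 0.28 at +4.5 kb (replicates 1 and 3). The -28.5 kb peak was lower by 0.55 (edgeR FDR = 0.0362), with 3.84, 5.79 and 5.24 CPM compared with 6.60, 6.49 and 8.82. The +4.5 kb difference followed the scaling, at 0.43 under total counts and 0.17 with loess offsets (edgeR FDR = 0.221), and was 0.48 without replicate 2 (edgeR FDR = 0.217), not called in any of these. The number of calls also rests on mouse 1, in which LPS + (+)-JQ1 was highest at both Tnf peaks. Without replicate 1 none of the 3 was called, and the +0.8 kb difference was 0.50 with an FDR of 0.0257.

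In cells without LPS, differences were smaller and followed the scaling. Compared with unstimulated cells, (+)-JQ1 alone gave 3 higher peaks and none lower, where 11.0% of all tested peaks were called, 7.85% higher and 3.15% lower (15247 and 6125 peaks, but 3829 and 27366 under total counts). These were the -7.4 kb peak (27.7, 26.1 and 28.0 CPM, 0.57 ± 0.14, edgeR FDR = 0.00149), the +0.8 kb peak (19.9, 18.5 and 17.6 CPM, 0.52 ± 0.15, edgeR FDR = 0.00842) and the -17.5 kb peak (14.5, 16.4 and 14.1 CPM, 0.51 ± 0.15, edgeR FDR = 0.00948). Each was above every unstimulated library. No member was called higher under total counts or loess offsets, or without replicate 1 or replicate 2. Macrophage start sites summed to 67.1 to 69.7 CPM per kb with (+)-JQ1 alone, also above the unstimulated range. So did those of the dendritic cell list, with 32.4 to 44.1 compared with 23.8 to 31.5 unstimulated. The T cell and neutrophil lists overlapped with unstimulated cells, and the part of the lists in this comparison was not tested.

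IL-10 alone gave 1 higher peak, the +15.6 kb peak over coding sequence of Lst1, and none lower, where 8.66% of all tested peaks were called, 5.16% higher and 3.50% lower (10021 and 6793 peaks, but 2465 and 16657 under total counts). It had 20.2, 19.3 and 17.8 CPM compared with 11.8, 11.6 and 13.9 unstimulated (0.62 ± 0.14, edgeR FDR = 0.00144). This peak was not called under total counts or loess offsets, or without replicate 2. With IL-10 alone the start sites of the macrophage list (63.7 to 69.2 CPM per kb), the neutrophil list (26.2 to 29.4, compared with 13.8 to 25.2 unstimulated) and the dendritic cell list (34.4 to 35.3) were above the unstimulated range, and their part in this difference was not tested. No difference was called at the Tnf peaks, with 22.5 to 26.8 CPM at +4.5 kb (0.12 ± 0.15) and 12.5 to 15.5 CPM at +0.8 kb (0.15 ± 0.15).

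The rise with LPS was therefore also taken within each treatment. With (+)-JQ1 present 10 of the 19 peaks were higher with LPS and none lower, where 9.27% of all tested peaks were called, 5.69% higher and 3.58% lower. With IL-10 present 10 were higher and none lower, where 15.4% of all were called, 8.93% higher and 6.47% lower. Without replicate 3, 5 of the latter 10 were called, and those at +8.7, -2.5, -9.4, -11.0 and -20.9 kb were lost. For the +4.5 kb peak the rise was 2.18 ± 0.15 without treatment, 1.77 ± 0.14 with (+)-JQ1 and 1.46 ± 0.14 with IL-10. For the +0.8 kb peak it was 1.24 ± 0.14, 0.66 ± 0.14 and 0.31 ± 0.14, and the last was not called (edgeR FDR = 0.128). The smaller rises with (+)-JQ1 were not called as interactions by edgeR at either peak. They were -0.40 ± 0.20 at +4.5 kb (edgeR FDR = 0.294) and -0.57 ± 0.20 at +0.8 kb (edgeR FDR = 0.0919), and DESeq2 called the latter. Levels without LPS differed too, with the +0.8 kb peak above unstimulated cells by 0.52 with (+)-JQ1 alone and by 0.15 with IL-10 alone. Against LPS alone, this peak differed by -0.05 with LPS + (+)-JQ1 and by -0.78 with LPS + IL-10. The Lta promoter, not called without treatment, rose by 0.89 ± 0.21 with (+)-JQ1 (edgeR FDR = 0.00151) and by 0.80 ± 0.20 with IL-10 (edgeR FDR = 0.00217). Whether the Lta rise differed from that without treatment was not shown, with interactions of 0.43 ± 0.30 and 0.34 ± 0.29 (edgeR FDR = 0.506 and 0.551).

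**Figure D4:**
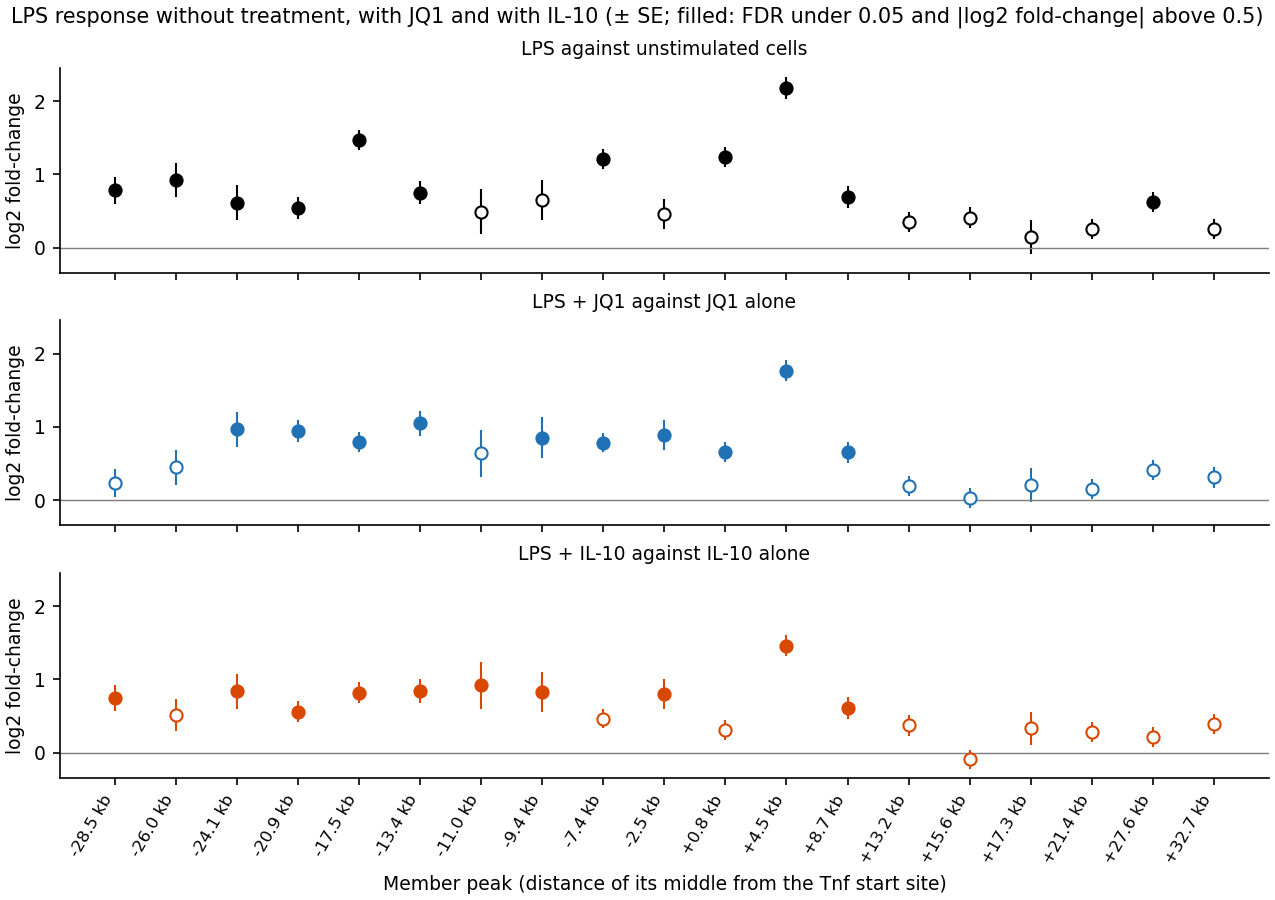
Log2 fold-change (± SE) of each member peak with LPS in untreated, (+)-JQ1-treated and IL-10-treated cells, ordered along the locus. Filled points are called differences, and the rise of the +0.8 kb peak was 1.24, 0.66 and 0.31 in the 3 panels. Its interaction with (+)-JQ1 was not called (-0.57, edgeR FDR = 0.0919).

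Tested as an interaction, the LPS response was smaller with IL-10 in 4 peaks and larger in none, where 7.91% of all tested peaks were called, 5.90% smaller and 2.01% larger (11454 and 3907 peaks, but 5153 and 12205 under total counts). The 4 were the +0.8 kb (-0.92 ± 0.20, edgeR FDR = 0.00113), -7.4 kb (-0.75 ± 0.19, edgeR FDR = 0.00556), +4.5 kb (-0.72 ± 0.20, edgeR FDR = 0.0121) and -17.5 kb peaks (-0.65 ± 0.20, edgeR FDR = 0.0257). The interaction contains the difference of LPS from unstimulated libraries, so it is not independent of the rise with LPS. It also contains the difference of the treatment alone from unstimulated cells. With IL-10 alone that was 0.49 at -7.4 kb, 0.30 at -17.5 kb, 0.15 at +0.8 kb and 0.12 at +4.5 kb. LPS + IL-10 against LPS gave -0.26, -0.35, -0.78 and -0.60 at these peaks, the first 2 not called. With (+)-JQ1 the response was smaller in 1 peak, at -17.5 kb (-0.67 ± 0.20, edgeR FDR = 0.0355), where 3.84% of all were called, 3.19% smaller and 0.649% larger (6202 and 1261 peaks, but 1839 and 4674 under total counts). At this peak (+)-JQ1 alone differed from unstimulated cells by 0.51, and LPS + (+)-JQ1 from LPS by -0.16, which was not called. Without replicate 2 none of these interactions was called. Without replicate 1, 2 of the 4 with IL-10 (+0.8 and +4.5 kb) and none with (+)-JQ1 were called. Under total counts or loess offsets, of these calls the +0.8 kb interaction with IL-10 alone was kept. With loess offsets the interactions with IL-10 were -0.55 at +0.8 kb, -0.00 at +4.5 kb (edgeR FDR = 0.994), -0.21 at -7.4 kb and -0.28 at -17.5 kb, and that with (+)-JQ1 was -0.34 at -17.5 kb.

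By condition, the mean level of the +4.5 kb peak was ordered LPS (103 ± 13.5 CPM), LPS + (+)-JQ1 (96.8 ± 15.6), LPS + IL-10 (68.0 ± 4.95), (+)-JQ1 alone (28.3 ± 3.40), IL-10 alone (24.7 ± 2.16) and unstimulated (22.7 ± 5.29, all SD, n = 3). The highest pair and the lowest 3 did not differ beyond their spread. At +0.8 kb the order was LPS (30.6 ± 1.48), LPS + (+)-JQ1 (29.7 ± 6.07), (+)-JQ1 alone (18.6 ± 1.16), LPS + IL-10 (17.9 ± 1.17), IL-10 alone (14.4 ± 1.61) and unstimulated (12.9 ± 3.06). There the libraries of LPS overlapped with LPS + (+)-JQ1, those of (+)-JQ1 alone (17.6 to 19.9) with LPS + IL-10 (16.7 to 19.0), and those of IL-10 alone with unstimulated cells.

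The promoter-class peaks elsewhere whose log2 CPM followed the +4.5 kb peak most closely over the 18 libraries were at the starts of Art3 (Pearson r = 0.985), Olfr433 (0.981), I830012O16Rik (0.979), the neutrophil chemokine gene Cxcl2 (0.976) and Nod2, a sensor of bacterial peptidoglycan (0.976). For the +0.8 kb peak they were at the starts of Tbc1d1 (0.958), Ube2l6 (0.956), the chemokine gene Ccl3 (0.952), Gm10425 (0.950) and Icam5 (0.948). These are the 5 highest of 36658 peaks for each and are given as a description, since the libraries share mice and lanes. All of the named peaks were also higher with LPS, with log2 fold-changes from 0.93 (Icam5) to 2.43 (Cxcl2).

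Genes that act with or against these cytokines were examined through the peaks within 25 kb of each. Of 690 peaks at 30 genes of TNF and lymphotoxin signalling, 228 (33.0%) were higher with LPS and 27 (3.91%) lower, beside 11.7% and 10.2% of all tested peaks. Among the receptors, Tnfrsf1b (TNFR2) had 18 of 32 peaks higher, Tnfrsf1a (TNFR1) 8 of 24, Tnfrsf14, the receptor of LIGHT, 8 of 24, and Ltbr, the lymphotoxin-β receptor, 2 of 20. In the NF-κB arm, Nfkb1, which encodes the p105/p50 subunit, had 40 of 48 peaks higher, and its inhibitor Nfkbia 9 of 19. The feedback inhibitor Tnfaip3 (A20) had 16 of 23, the anti-apoptotic Cflar 21 of 30, and Adam17, the protease that sheds TNF, 9 of 27. Chuk, a kinase of the same arm, had 0 of 12 called.

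With LPS + (+)-JQ1 against LPS, 51 (7.39%) of these 690 peaks were lower and 10 (1.45%) higher, and with LPS + IL-10, 80 (11.6%) were lower and 22 (3.19%) higher, beside the 3.49% and 1.74%, and 4.51% and 4.26%, of all tested peaks. The counts with (+)-JQ1 depended on single mice, with 17 lower without replicate 2, 72 lower without replicate 1 and 4 to 7 higher leaving out a replicate. With IL-10, 48 were lower without replicate 2, and 11 to 14 were higher leaving out a replicate. Nfkb1 had 39 of its 48 peaks lower with IL-10 and 5 with (+)-JQ1. The adaptor Traf1 had 9 and 8 of its 15 peaks lower. An intergenic peak near Traf1 (chr2:34791888-34792738) showed the largest rise with LPS in the list, from 0.808 ± 0.445 to 8.75 ± 2.04 CPM (3.47 ± 0.31, edgeR FDR = 1.36e-17). It had 0.644 ± 0.243 CPM with LPS + (+)-JQ1 (-3.84 ± 0.31, edgeR FDR = 4.35e-18) and 1.28 ± 0.547 with LPS + IL-10 (-2.75 ± 0.28, edgeR FDR = 1.17e-13). The largest fall with LPS was in coding sequence of Edf1 within the window of Traf2 (chr2:25416171-25416904), from 1.55 ± 0.670 to 0.472 ± 0.109 CPM (-1.68 ± 0.41, edgeR FDR = 0.00106). An intron peak of Ikbkg (chrX:71644977-71646970) had the largest rise with (+)-JQ1 over LPS, from 1.02 ± 0.109 to 3.87 ± 0.968 CPM (1.93 ± 0.27, edgeR FDR = 6.02e-08), and an intergenic peak near Birc3 (chr9:7890978-7891724) that with IL-10, from 1.32 ± 0.111 to 3.06 ± 0.909 CPM (1.22 ± 0.31, edgeR FDR = 0.00440). Tnip1, a partner of A20, had 7 of 26 peaks higher with IL-10, and Ikbkg, the regulatory subunit of the IκB kinase, 7 of 21 higher with (+)-JQ1.

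At 15 other ligand genes of the TNF superfamily, 59 of 177 peaks (33.3%) were higher with LPS and 2 (1.13%) lower. Of all tested peaks, 11.7% were higher and 10.2% lower. Tnfsf10 (TRAIL) had 15 of 19 peaks higher and Tnfsf14 (LIGHT) 11 of 21, while Tnfsf11 (RANKL), Cd40lg (CD40 ligand) and Eda (ectodysplasin) had none called higher. With LPS + (+)-JQ1, 19 of the 177 (10.7%) were lower and 4 (2.26%) higher, and with LPS + IL-10, 32 (18.1%) were lower and 3 (1.69%) higher. Over all tested peaks these shares were 3.49% and 1.74% with (+)-JQ1, and 4.51% and 4.26% with IL-10. Leaving out a replicate, the count lower with (+)-JQ1 was 12 (without replicate 1), 5 (without replicate 2) and 6 (without replicate 3), and that with IL-10 was 14 without replicate 2. Tnfsf10 had 10 of its 19 peaks lower with (+)-JQ1 and 11 with IL-10. An intergenic peak near Tnfsf14 (chr17:57338706-57339673) had the largest rise with LPS, from 0.764 ± 0.227 to 3.92 ± 0.305 CPM (2.33 ± 0.30, edgeR FDR = 3.30e-10), and one near Tnfsf18 (chr1:163437585-163438719), the gene of GITR ligand, the largest fall, from 3.54 ± 0.245 to 1.83 ± 0.333 CPM (-0.93 ± 0.24, edgeR FDR = 0.00184). Against LPS, the largest falls were in an intron of Tnfsf15 with (+)-JQ1 (chr4:63395733-63396280, -1.82 ± 0.48, edgeR FDR = 0.00920) and in an intergenic peak near Tnfsf8 with IL-10 (chr4:63547129-63547657, -2.65 ± 0.59, edgeR FDR = 7.77e-04). The largest rises against LPS were 0.63 ± 0.17 with (+)-JQ1 at Eif4a1, within the windows of Tnfsf12 and Tnfsf13 (edgeR FDR = 0.0117), and 0.90 ± 0.22 with IL-10 in an intergenic peak near Tnfsf12 (edgeR FDR = 0.00226). Neighbouring genes can share peaks, as Tnfsf12 and Tnfsf13 do.

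**Figure D5:**
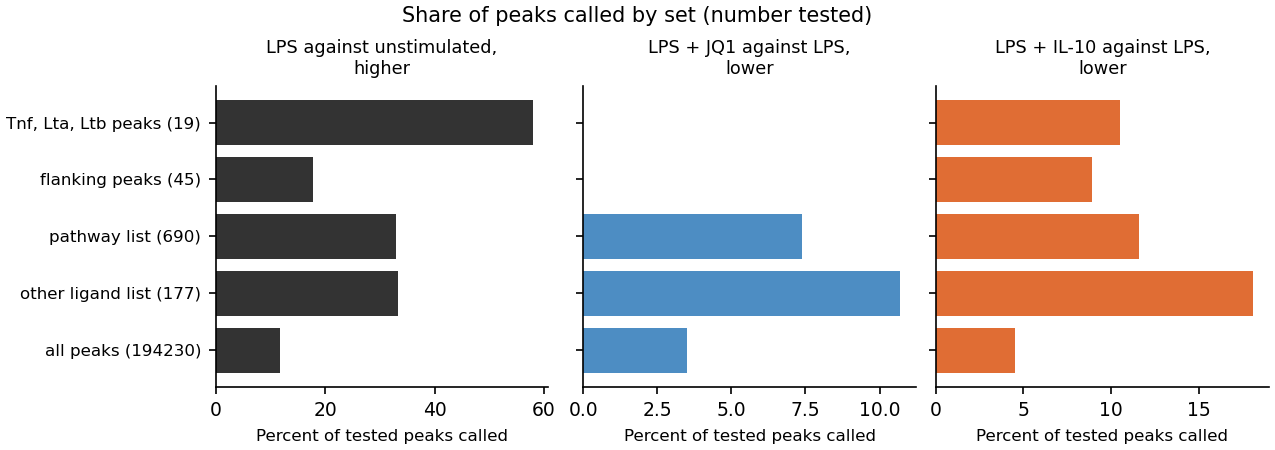
Percent of tested peaks called higher with LPS (left), lower with LPS + (+)-JQ1 than LPS (centre) and lower with LPS + IL-10 than LPS (right), for the member peaks, the flanks within 100 kb, the pathway list, the other ligands and all peaks, with the number tested in brackets. The member peaks have the longest bar with LPS (57.9%), the members and the flanks both have none with (+)-JQ1, and the horizontal scales differ between panels.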

How the data were processed

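ATAC-seq counts of 18 libraries (6 conditions, 3 mice) were used. Per the labels and the methods, the authors ran PEPATAC, used Bowtie2 on mm9 and kept unique alignments, called peaks per library with MACS2, classed them with ChIPSeeker and deposited raw counts per peak of the union, without normalization. The tool that counted reads, and whether reads were shifted for the transposase, are not given in the sources used here. In the table, 6 columns matched no sample and were not used. Depth was 12020526 to 25908198 counts in peaks per library. Reads outside peaks were not analysed here.

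Counts were tested in R 4.3.3 with edgeR 4.0.16 (filterByExpr, TMM, 1 quasi-likelihood fit of 6 groups, Benjamini-Hochberg adjustment over 194230 peaks), and 10 comparisons were taken from the fit. The SE is the log2 fold-change divided by the root of its F statistic, and approximate 95% intervals are 1.96 SE on either side. The authors used DESeq2, and DESeq2 1.42.0 was an alternative beside other scalings, filters, designs, a stricter FDR and each replicate left out. The fit was tested on simulated counts. Sequence and genes came from NCBIM37 (mm9) and GENCODE M1. A list of B cell markers is not reported here. Members and gene lists were chosen with earlier results of these data known. Member peaks given by library are those at a start site of Lta or Ltb or called for LPS against unstimulated, or either treatment against LPS, and others were added after their values were seen. In the gene lists, the largest called rise and fall in each of these comparisons are given. The comparison of patterns had been planned for a peak at the Tnf start site, and the +4.5 and +0.8 kb peaks, which overlap Tnf, were used in its place. The search of whole peaks for motifs, beside the central 300 bases, was added after seeing the data.

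Same-numbered replicates were taken to come from the same mouse, since the sample titles number them alike but name no mouse. Deviations from group means correlated at 0.00573 on average over 45 same-numbered pairs of libraries and -0.00286 over 90 others. Libraries of a group differed by more than sampling noise, and none was counted as a duplicate.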

Additional observations from a re-analysis of the deposited data

Results flagged for a closer look

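The LPS responses that differed between treatments are listed here with the test of the difference itself, the interaction term of edgeR's quasi-likelihood test. With IL-10 the response was smaller by -0.92 (log2) at the +0.8 kb peak, -0.75 at -7.4 kb, -0.72 at +4.5 kb and -0.65 at -17.5 kb, and with (+)-JQ1 by -0.67 at -17.5 kb. In each case all 3 mice were higher with LPS both with and without the treatment, so the responses differed in size and not in direction. Without LPS, (+)-JQ1 at -17.5 kb and IL-10 at -7.4 kb were 0.51 and 0.49 above unstimulated cells. Under LPS these treatments differed from LPS alone by -0.16 and -0.26 there, neither called. Scaled by total counts the interactions of the +4.5, -7.4 and -17.5 kb peaks with IL-10 were -0.46, -0.48 and -0.38 (edgeR FDR = 0.0333, 0.0229 and 0.133) and under the call threshold in size, that of the +0.8 kb peak was -0.66 (edgeR FDR = 0.00612), and that of the -17.5 kb peak with (+)-JQ1 was -0.41 (edgeR FDR = 0.143). With loess offsets the +4.5 kb interaction with IL-10 was -0.00 (edgeR FDR = 0.994), those at -7.4 and -17.5 kb were -0.21 and -0.28 (edgeR FDR = 0.394 and 0.331), that at +0.8 kb was -0.55 (edgeR FDR = 0.0256), and that with (+)-JQ1 at -17.5 kb was -0.34 (edgeR FDR = 0.339). Groups of 3 libraries are too small for a check of single outlying libraries.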

How the results depend on the processing

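For the members, the count called higher with LPS (11) was 7 under total counts and loess offsets, 5 of the 11 members left where genes were extended by 10 kb (the same 11 for each 10 kb count below), and 7 to 12 with 1 replicate left out. The other counts of members follow with the count as reported first. For (+)-JQ1 alone, higher: 3, 0 under total counts, loess offsets or at least 10 counts in every library, and 0 to 5 leaving out a replicate. Lower: 0, 2 under total counts and 1 with loess. For IL-10 alone: 1, 2 with DESeq2 or its size factors, 0 under total counts or loess, and 0 to 2 leaving out a replicate. LPS + IL-10 against LPS, lower: 2, 1 with loess, and 1 to 2. LPS + (+)-JQ1 against LPS + IL-10, higher: 2, 1 under total counts, loess, at least 10 counts or only the groups compared, and 0 to 2. Lower: 1, 0 with loess, an FDR under 0.01 or 10 kb, and 0 in each omission. LPS with IL-10 against IL-10 alone: 10, 6 for 10 kb, and 5 to 9. Interaction with (+)-JQ1, smaller: 1, 2 with DESeq2, 0 under total counts, loess, only the groups compared, an FDR under 0.01 or 10 kb, and 0 to 1. Larger: 0, 1 under total counts and loess. Interaction with IL-10, smaller: 4, 1 under total counts and loess, 2 at an FDR under 0.01, and 0 to 5. Larger: 0, 1 with loess. None of the 19 was called between LPS + (+)-JQ1 and LPS in any alternative.

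With the replicate block (mouse), the same 11 members were called with LPS and no member call changed in the 10 comparisons.

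The log2 ratio of summed accessibility, LPS to unstimulated, was 1.00 as reported, 0.78 under total counts and 0.63 as a median of log2 CPM. LPS + IL-10 to LPS was -0.23 as reported, -0.17 under total counts and -0.05 as a median, and the libraries overlapped under total counts and as a median. LPS + (+)-JQ1 to LPS was 0.02 as reported and -0.09 to 0.10 leaving out a replicate, reversed without replicate 1, and the cause was not tested. In the pathway list, 27 lower with LPS became 58 under total counts and 11 at an FDR under 0.01, and 10 to 25 leaving out a replicate. Against LPS, 10 higher with (+)-JQ1 became 6 with at least 10 counts and 4 to 7 leaving out a replicate, and 51 lower became 17 (without replicate 2) to 72 (without replicate 1). With IL-10, 22 higher became 34 under total counts and 11 to 14 leaving out a replicate, and 80 lower 48 to 70. In the ligand list, 2 lower with LPS became 13 under total counts, 4 with loess, 5 with at least 10 counts and 2 to 4 leaving out a replicate. With (+)-JQ1, 4 higher became 2 at an FDR under 0.01 and 0 to 3 leaving out a replicate, and 19 lower became 11 with DESeq2, 9 with at least 10 counts, 12 at an FDR under 0.01 and 5 to 12. With IL-10, 32 lower became 20 with at least 10 counts, 21 at an FDR under 0.01 and 14 to 25, and 3 higher 0 to 3. In the flanks, 8 higher with LPS became 5 under total counts and loess, and 0 lower became 1 under total counts and with at least 10 counts. The 4 lower in the flanks with IL-10 became 1 to 4, and 0 higher 0 to 1, leaving out a replicate.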
